A study of Caenorhabditis elegans with 45 samples.

Results

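The cytosolic ribosomal protein genes of *Caenorhabditis elegans* were followed from the end of the last molt to early old age. The genes were chosen by name alone, as all those beginning with rpl- (47 genes of the large subunit), rps- (31 genes of the small subunit) or rla- (3 genes of the acidic stalk), which gave 81 of the 25985 genes in the deposited table. All 81 had a mean value high enough to be tested. RNA-seq was performed on poly(A) RNA of whole worms in 45 libraries, each from a pool of many animals. FEM animals (23 libraries) carried fem-3(q20) IV, a temperature-sensitive gain-of-function allele that masculinizes the germline, so that its germ cells become sperm and oocytes are not made, within a somatic gonad of normal form. GEM animals (22 libraries) carried gon-2(q388); gem-1(bc364), which block the division of the gonad precursor cells, but not in every animal, and gonads can form late. Both strains were raised at the restrictive temperature, without FUDR, on HT115 bacteria with the empty vector L4440, and visibly fertile GEM worms were removed before harvest. Sampling took place 41 and 49 h post feeding on day 1 of adulthood, after 65 and 73 h on day 2, after 89 and 97 h on day 3, and after 117, 137 and 257 h on days 4, 5 and 10, with 2 or 3 libraries in each of the 18 groups. The strains differ at all 3 of these genes and no wild type is analysed here, so the effects of the alleles cannot be told apart.

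The ribosome has a small subunit, which reads the mRNA, and a large subunit, which joins the amino acids. The large subunit carries the stalk (rla-0, rla-1 and rla-2), which recruits the elongation factors. Ribosomal proteins are needed in near equal amounts, and their mRNAs are among the most abundant in growing cells and in the germline, where ribosomes are made for the oocyte. Some worm ribosomal proteins are encoded by a pair of genes, and in the germline of *C. elegans* most genes on the X chromosome are held at low activity. The rpl-24.2 gene, despite its name, is the worm counterpart of the yeast assembly factor Rlp24, which rides on the precursor of the large subunit in the nucleolus and is later exchanged for the ribosomal protein encoded by rpl-24.1.

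The estimated depth of the libraries was between 12831660 and 43208901 reads assigned to genes, and between 16670 and 20163 genes were detected in each. The labels were checked against cell type markers, as the mean log2 level of each fixed list. The level used throughout is log2(normalised count + 1). The 7 sperm markers stood between 8.45 and 11.34 in FEM libraries and between 2.63 and 6.69 in GEM libraries. The 11 oocyte markers stood between 7.96 and 10.01 in FEM libraries, and in GEM libraries at 14.12 in each library of 257 h and between 3.40 and 5.07 in those of 41 h. The 9 markers of germline nuclei had group means of 10.24 to 10.85 in FEM animals. In GEM libraries of 257 h they had 12.68 and 12.79, and in those of 41 h they spanned 5.44 to 6.65. The 6 embryo markers did not exceed a mean of 3.74 in any library, and between 0 and 5 of them were at 0. Germline markers of GEM worms thus climbed over the ages compared here. Lists of 5 markers for other tissues moved in both strains between 41 and 137 h. The mean of body wall muscle markers went from 15.47 to 13.12 in FEM and from 15.25 to 13.26 in GEM animals. Intestine markers went from 12.23 to 11.04 and from 11.95 to 10.93, and epidermis markers from 10.25 to 5.49 and from 11.33 to 6.69. Neuron markers went from 10.05 to 10.40 and from 10.31 to 10.68. In RNA of whole worms a change in the number of cells of a type and a change in RNA per cell cannot be told apart. The part of cell numbers in each difference below was not tested, also where marker levels are set beside it.

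Of the 81 genes, 25 lie on chromosome I, 18 on III, 18 on IV, 10 on II, 8 on V and 2 on X (WBcel235, the build to which the reads were mapped). The X chromosome thus holds 2.47% of the ribosomal protein genes, against 14% of the tested genes with a position. The 2 X-linked genes are rpl-11.2 (WBGene00004423, chromosome X, 2241738 to 2242618) and rpl-25.1 (WBGene00004438, chromosome X, 4715178 to 4715796). Their partners are autosomal: rpl-11.1 (WBGene00004422) spans 3585312 to 3586064 on chromosome V and rpl-25.2 (WBGene00004439) spans 8329062 to 8329647 on chromosome I. Exons of 15 members overlap exons of another gene, by 110 bases at most (rps-20), and reads were not counted by strand, so a share of the reads of these genes can belong to the neighbour.

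Levels per kilobase of exon, averaged over the groups, were close together for most of the family. The highest was that of rps-8, a protein of the small subunit, at 16.52 on the log2 scale, followed by rpl-21 at 16.42 and rps-10 at 16.35. The median was 15.56, and 77 of the 81 members stood between 13.91 (rla-2) and 16.52. Below them were 4 members: rpl-37 at 11.90, rpl-24.2 at 11.46, rpl-41.1 at 11.37 and rpl-42 at 8.01. The rpl-42 average hides the strains, since it was 8.99 in FEM animals and 2.42 in GEM animals.

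Most members moved together. Over the means of the 18 groups the median correlation between 2 members was r = 0.933 (a description, since all members share the scaling of each library). The members rpl-11.1, rpl-11.2, rpl-25.1, rpl-25.2, rpl-24.2 and rpl-42 followed courses of their own in 1 strain or both and are described apart. They were set aside after their values were seen, and the other 75 are summarised by their mean log2 level. In FEM animals rpl-11.2 and rpl-25.1 did follow that mean (r = 0.966 and 0.961), and in GEM animals they did not (r = -0.157 and -0.223). In GEM animals rpl-24.2 and rpl-25.2 (r = 0.825 and 0.784) followed it more closely than rpl-22, which was kept. Of all 81 members, 75 in FEM animals and 71 in GEM animals followed that mean over the 9 ages with r of at least 0.9. The lowest among those in the mean were rpl-41.1 in FEM animals (r = 0.608) and rpl-22 in GEM animals (r = 0.764).

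In FEM animals the mean of the 75 members was high on day 1, lower from day 2 to day 5 and higher again on day 10. The 41 h libraries averaged 14.90 ± 0.06 and the 49 h libraries 14.88 ± 0.10 (SD, n = 3 each). On day 2 the level was 14.24 ± 0.03 (n = 2) after 65 h and 14.35 ± 0.12 (n = 3) after 73 h, and on day 3 it was 14.24 ± 0.12 (n = 3) after 89 h and 14.33 ± 0.06 (n = 3) after 97 h. Day 4 had 14.37 ± 0.30, day 5 had 14.08 ± 0.01 and day 10 had 14.54 ± 0.14 (n = 2 each). The 5 libraries of 65 and 73 h, at 14.20 to 14.44, all lay below the 6 libraries of day 1, at 14.81 to 14.99. The libraries of 257 h, at 14.64 and 14.44, overlapped those of 117 h, at 14.15 and 14.58.

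In GEM animals the course was a dip followed by a long climb. The 41 h libraries averaged 14.90 ± 0.02 (SD, n = 3) and the 49 h libraries 14.29 ± 0.25 (n = 2). On day 2 the level was 14.04 ± 0.24 after 65 h and 14.12 ± 0.24 after 73 h (n = 3 each), and on day 3 it was 14.52 ± 0.36 (n = 3) after 89 h and 14.39 ± 0.12 (n = 2) after 97 h. Day 4 had 14.70 ± 0.20, day 5 had 14.98 ± 0.02 and day 10 had 15.30 ± 0.16 (n = 2 each). The GEM libraries of 257 h, at 15.19 and 15.41, were the highest of all 45 on the deposited scale. As a share of all normalised counts, given below, their mean was under that of either strain at 41 h.

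**Figure D1:**
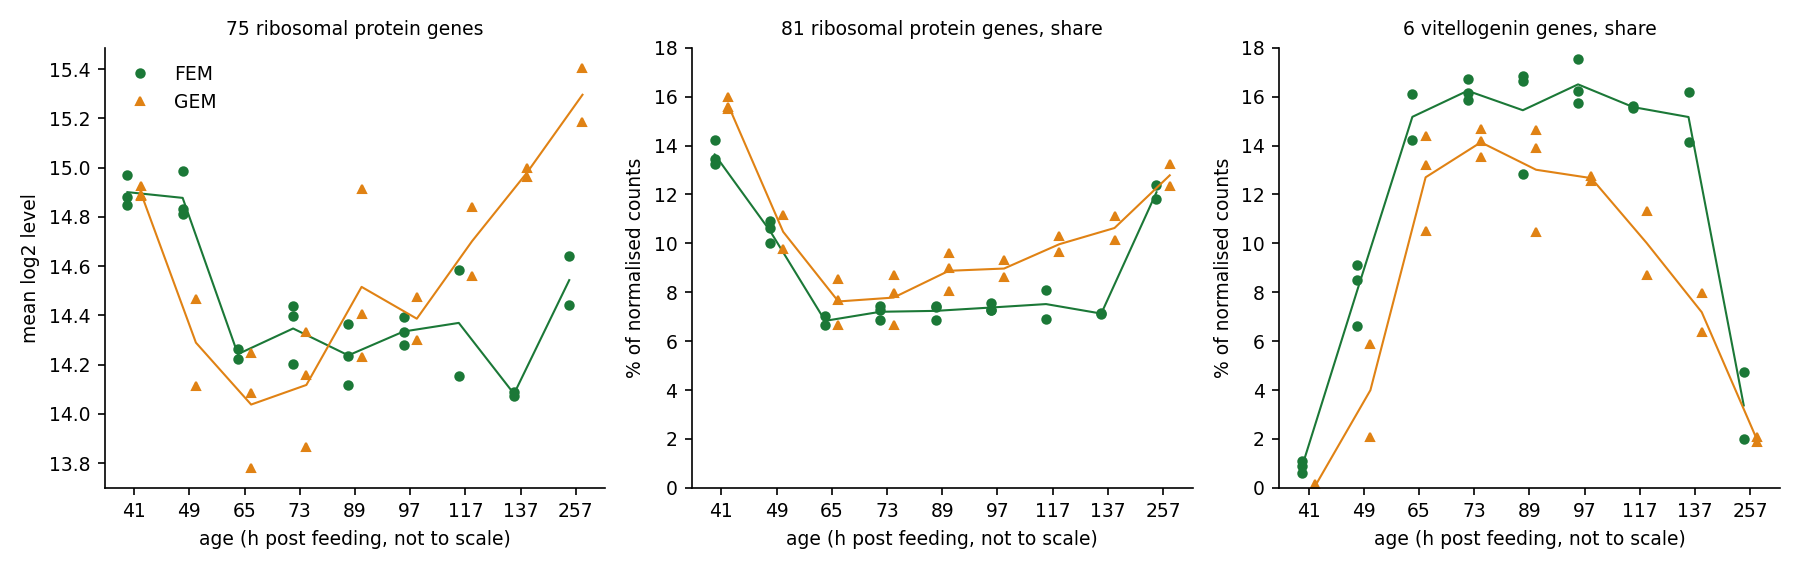
Each point is a library, by age in h post feeding (9 ages, evenly spaced), FEM as circles and GEM as triangles, with lines through the group means. The left panel gives the mean log2 level of 75 ribosomal protein genes, the middle panel the percent of all normalised counts in the 81 genes, and the right panel the same percent for 6 vitellogenin genes; the GEM mean reaches 15.30 and the FEM mean 14.54 at 257 h.

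The 81 genes took a large part of all normalised counts, which is a measure that does not depend on the scaling of a library. In FEM animals they held 13.6 ± 0.54% (SD, n = 3) at 41 h, 10.5 ± 0.47% (n = 3) at 49 h, group means of 6.83 to 7.52% from 65 to 137 h, and 12.1 ± 0.40% (n = 2) at 257 h. In GEM animals they held 15.7 ± 0.25% (n = 3) at 41 h, 10.5 ± 0.99% (n = 2) at 49 h, 7.62 ± 0.94% (n = 3) at 65 h, 10.6 ± 0.71% (n = 2) at 137 h and 12.8 ± 0.64% (n = 2) at 257 h. The 6 vitellogenin genes, which encode the yolk proteins, moved the other way. They held 0.85 ± 0.24% at 41 h, 16.5 ± 0.91% at 97 h and 3.37 ± 1.94% at 257 h in FEM animals, and 0.08 ± 0.06%, 12.7 ± 0.14% and 1.97 ± 0.16% at the same ages in GEM animals. With the vitellogenin genes left out of the total, the ribosomal protein genes still held 13.8 ± 0.54% at 41 h, 8.05 ± 0.18% at 65 h and 12.5 ± 0.16% at 257 h in FEM animals, and 15.7 ± 0.24%, 8.72 ± 0.96% and 13.0 ± 0.63% in GEM animals.

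Replicates kept the order of the members in nearly all groups, and 2 GEM libraries of day 1 did not. Each library was compared with the mean of the others of its group, and the SD of the difference over the 75 members was between 0.039 and 0.165, with a median of 0.071, in the 40 libraries outside the GEM groups of 41 and 49 h. It was 0.42 in GEM replicate 3 of 41 h and 0.42 in GEM replicate 1 of 49 h (the group of 49 h has 2 libraries, and the label of the library that stands apart rests on the resemblance that follows). The same members were displaced in both. Over all 81 members the differences in the 2 libraries had r = 0.87, and 8 of the 10 lowest and 9 of the 10 highest members were shared.

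The displaced members went in both directions. The large-subunit gene rpl-33 stood at 14.54 in GEM replicate 3 of 41 h, against 15.31 and 15.47 in the other replicates, and at 13.69 in GEM replicate 1 of 49 h, against 14.90 in the other. The rpl-25.1 gene stood at 14.27 against 15.06 and 15.11, and at 13.42 against 14.60. The rpl-22 gene was higher in the displaced libraries, by 1.13 at 41 h and by 0.76 at 49 h, and rps-23, which takes part in decoding, was higher by 0.69 and 0.49. Exon length did not sort the members strongly (r = -0.25 and -0.10 with log2 length over the 75 members). What set these libraries apart was not tested, and counts that use day 1 of GEM animals are also given without them.

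**Figure D2:**
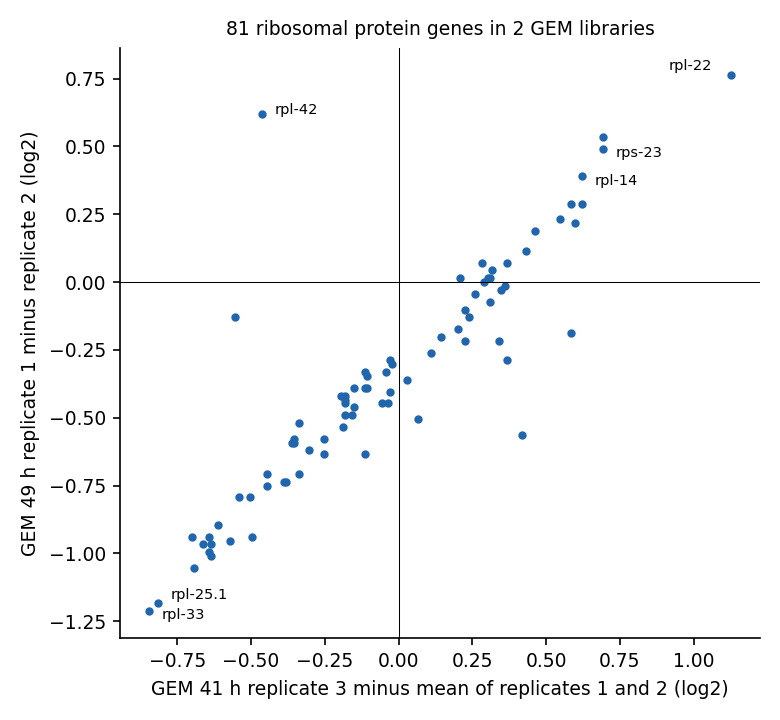
Each point is a ribosomal protein gene (81 in all). The x axis gives its log2 level in GEM replicate 3 of 41 h minus the mean of replicates 1 and 2, and the y axis its level in GEM replicate 1 of 49 h minus replicate 2; the points run along a diagonal from rpl-33 (-0.84 and -1.21) to rpl-22 (1.13 and 0.76), while rpl-42 lies off it.

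Differences were then tested gene by gene with limma, fitted to the means of all 18 groups, and p-values were adjusted over all 16925 genes tested (Benjamini-Hochberg). A member was called higher or lower at an adjusted p under 0.05, and values are given as the log2 difference ± its standard error (SE). How old FEM animals differed from young ones came first. From day 1 (41 and 49 h) to days 4-5 (117 and 137 h), 77 of the 81 members fell and 1, rpl-42, rose. Of all genes tested, 20.9% fell and 35.4% rose. All 31 genes of the small subunit, 43 of 47 of the large subunit and the 3 stalk genes fell. The members' median was -0.66 and that of all genes 0.23, and the middle 50% of members spanned 0.10, against 1.18 for all genes.

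The fall was of similar size in members of very different function. The member nearest the median was rps-12, which stood at 13.55 to 14.10 in the 4 FEM libraries of days 4-5 and at 14.27 to 14.51 in the 6 of day 1, with no overlap. It fell by 0.66 on the log2 scale (SE 0.12, adjusted p = 3.28e-05). The rps-6 gene, whose protein is the classical target of S6 kinase, stood at 15.13 to 15.57 on days 4-5 and at 15.75 to 15.93 on day 1 and fell by 0.56 (SE 0.13). The rpl-4 gene, whose product lines the exit tunnel, fell by 0.70 (SE 0.12), rpl-5, which binds the 5S rRNA, by 0.68 (SE 0.13), and rps-3, at the entry of the mRNA channel, by 0.66 (SE 0.12). The decoding-site gene rps-23 fell by 0.76 (SE 0.14) and rps-15 by 0.74 (SE 0.11). The stalk base rla-0 fell by 0.63 (SE 0.11), and the stalk proteins rla-1 by 0.82 (SE 0.13) and rla-2 by 0.66 (SE 0.13). The largest falls were those of the X-linked rpl-11.2 (-1.40 ± 0.10, adjusted p = 6.69e-14) and rpl-25.1 (-1.14 ± 0.15, adjusted p = 1.31e-07). The 3 members that did not pass were their partners rpl-11.1 (0.19 ± 0.20) and rpl-25.2 (-0.33 ± 0.17), and rpl-24.2 (-0.11 ± 0.15). With quantile normalization, 38 members fell and 3 rose, and the members' median was -0.20; rpl-7, rpl-7A, rpl-24.1, rla-0 and rps-6 then had values above 0. With each library centred on its median or brought to the same total, 78 or 79 fell.

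In GEM animals the same step in age gave another picture. From day 1 to days 4-5, 39 members rose and 2 fell, with a median of 0.29, against a median of 0.75 over all genes. Of all genes tested, 54.3% rose and 22.4% fell, so rises were no more common among the members. The members' median turned to -0.39 (all genes 0.06) when each library was centred on its median (4 rose, 64 fell). With the same total in each library it was -0.31, against 0.21 over all genes (4 rose, 59 fell). With quantile normalization it was 0.28, above the -0.02 of all genes. The member nearest the median, rpl-6, stood at 15.51 to 16.04 in the 4 GEM libraries of days 4-5 and at 14.99 to 15.99 in the 5 of day 1, so that the groups overlapped (0.29 ± 0.13, adjusted p = 0.0389). The count of members that rose was 12 without the 2 displaced libraries, 13 without GEM replicate 1 of 49 h alone, 19 without GEM replicate 1 of 117 h, 4 with day 1 taken as 41 h and 62 with day 1 taken as 49 h. The 2 that fell were rpl-11.2 (-1.94 ± 0.10, adjusted p = 6.33e-18) and rpl-25.1 (-1.33 ± 0.16, adjusted p = 4.32e-09). The largest rises were those of rpl-11.1 (4.14 ± 0.21, adjusted p = 4.68e-18), rpl-24.2 (1.69 ± 0.16, adjusted p = 1.60e-11) and rpl-25.2 (1.64 ± 0.18, adjusted p = 8.07e-10), and these 5 kept their directions under every scaling tried.

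The change with age differed between the strains. In the interaction term (the change from day 1 to days 4-5 in FEM minus that in GEM animals), 77 members were lower and 1, rpl-11.2, was higher. Of all genes tested, 41.6% were lower and 14.4% higher. The median was -0.94, against -0.43 over all genes. The member nearest it was rpl-7 (-0.94 ± 0.15, adjusted p = 2.35e-06), and rps-6 had -1.12 ± 0.18, rpl-4 -1.11 ± 0.17 and rla-0 -0.96 ± 0.16. Between 54 and 60 members were lower under the 4 other scalings, with medians of -0.39 to -0.47, and 78 were lower without the 2 displaced GEM libraries. The most negative were rpl-11.1 (-3.94 ± 0.29, adjusted p = 3.61e-13) and rpl-25.2 (-1.97 ± 0.25, adjusted p = 2.97e-08). The members that did not pass were rpl-22 (-0.41), rpl-25.1 (0.18) and rpl-42 (-0.39).

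**Figure D3:**
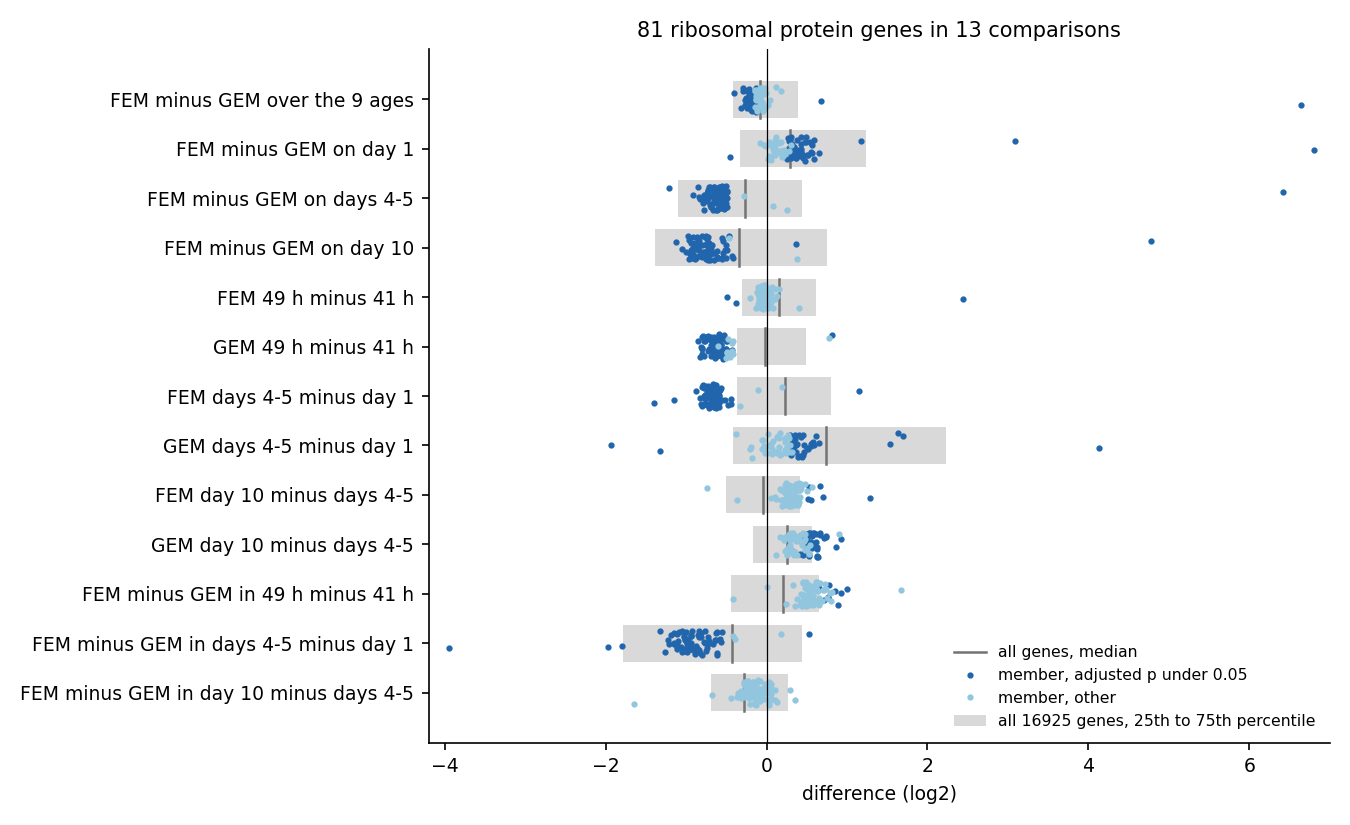
Each row is a comparison, with the log2 difference of every ribosomal protein gene as a point (dark for an adjusted p under 0.05), and the grey bar spans the middle 50% of all 16925 genes with their median as a line. The 81 members form a narrow cluster in each row, as at -0.66 for FEM days 4-5 minus day 1 against a median of 0.23 for all genes, and the points far from it are rpl-42, rpl-11.1, rpl-11.2, rpl-25.1, rpl-25.2 and rpl-24.2.

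Set side by side at days 4-5, FEM animals had less ribosomal protein mRNA than GEM animals. Of the 81 members, 77 were lower in FEM animals and 1, rpl-42, was higher, while 39.8% of all genes tested were lower and 22% higher. The median was -0.60, against -0.27 over all genes. The member nearest it, rpl-6, stood at 15.12, 15.54, 15.08 and 15.18 in FEM libraries, against 15.78, 15.51, 16.04 and 15.99 in GEM libraries, so that 1 FEM library lay among the GEM libraries (-0.60 ± 0.13, adjusted p = 0.000224). That library was FEM replicate 2 of 117 h, in which all 75 members were higher than in the other replicate. The rpl-15 gene of the large subunit had one of the largest differences (-0.92 ± 0.12, adjusted p = 8.52e-08), with 14.82, 15.26, 14.76 and 14.80 in FEM libraries, against 15.84, 15.51, 15.99 and 15.99 in GEM libraries, and no overlap. The largest was that of rpl-24.2 (-1.21 ± 0.17, adjusted p = 1.13e-07).

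The other members chosen for their roles had smaller differences at days 4-5. The stalk genes rla-0, rla-1 and rla-2 were lower in FEM animals by differences of -0.78 ± 0.12, -0.74 ± 0.14 and -0.61 ± 0.14. In the large subunit rpl-36 had -0.79 ± 0.13, rpl-36.A -0.58 ± 0.13, rpl-4 -0.73 ± 0.13, rpl-5 -0.65 ± 0.14, rpl-7 -0.54 ± 0.11 and rpl-7A -0.60 ± 0.15. In the small subunit rps-3 had -0.64 ± 0.14, rps-6 -0.61 ± 0.14, rps-15 -0.65 ± 0.12 and rps-23 -0.53 ± 0.15. The members that did not pass were rpl-11.2 (0.08 ± 0.10), rpl-25.1 (0.25 ± 0.17) and rpl-41.1 (-0.28 ± 0.19). Under the 4 other scalings the members' median was -0.47 to -0.99, against -0.15 to -0.66 over all genes. These were closest with quantile normalization, at -0.47 and -0.39. Between 74 and 79 members were lower under every other scaling, filter and model tried, and between 73 and 77 with any library left out.

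On day 10, 77 members were lower in FEM animals than in GEM animals and 2, rpl-42 and rpl-11.2, were higher, with a median of -0.76 against -0.34 over all genes. Of all genes tested, 40.4% were lower and 21.3% higher. This count rests on the scaling: 6 members were lower with quantile normalization and 3 with the same total in each library, where the median was -0.08 in each case, and 78 with each library centred on its median. The median of all genes was -0.20, 0.30 and -0.61 under these scalings, in the order given. The member nearest the median was rpl-13 (-0.76 ± 0.20, adjusted p = 0.00117), and the largest were rpl-11.1 (-1.13 ± 0.31, adjusted p = 0.00224) and rpl-37 (-1.05 ± 0.22, adjusted p = 9.33e-05). The rpl-37 gene stood at 9.91 and 9.74 in FEM libraries and at 10.62 and 11.14 in GEM libraries.

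On day 1, 49 members were higher in FEM animals and 1, rpl-11.2, was lower (median 0.31, all genes 0.30), but the direction turned with the scaling, to 3 higher and 78 lower with each library centred on its median (median -0.58), 4 higher and 27 lower with the same total in each library, and 12 higher and 6 lower with quantile normalization. Of all genes tested, 45.5% were higher and 17.7% lower. The median of all genes turned with the scaling as well. It was -0.59 with each library centred on its median, -0.10 with the same total and -0.39 with quantile normalization. Without the 2 displaced GEM libraries 10 members were higher, and without GEM replicate 1 of 49 h alone 9. At 41 h alone 4 members were higher in FEM animals, and at 49 h alone 62. The member nearest the median, rps-1, had 0.31 ± 0.11 (adjusted p = 0.0186). The members that kept their direction under every scaling included rpl-42 (6.81 ± 0.32, adjusted p = 3.40e-19), rpl-11.1 (3.09 ± 0.19, adjusted p = 6.25e-16) and rpl-11.2 (-0.46 ± 0.09, adjusted p = 4.98e-05).

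Averaged over the 9 ages, FEM animals were lower in 43 members and higher in 2, rpl-42 and rpl-11.1, with a median of -0.14 against -0.08 over all genes. Of all genes tested, 38.6% were lower and 31.1% higher. The median was below 0 under every scaling, at -0.15 to -0.75, and 52 to 79 members were then lower. All genes moved likewise, with medians of -0.17 to -0.69 under these scalings. With quantile normalization the members' median of -0.15 was above that of all genes, -0.43. Without the 2 displaced GEM libraries, 57 members were lower and 2 higher. The largest negative values were those of rpl-15 (-0.41 ± 0.05, adjusted p = 4.60e-08) and rps-27 (-0.32 ± 0.06, adjusted p = 4.40e-05), and rpl-30, with -0.14 ± 0.06 (adjusted p = 0.0469), was nearest the median and lost its call on leaving out many of the single libraries. The rpl-11.1 gene had 0.67 ± 0.10 (adjusted p = 1.69e-07), and did not pass the test with each library centred on its median.

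Within the first day of adulthood, few members passed the test in FEM animals on the deposited scale. In 49 minus 41 h, 2 fell (rpl-11.2 and rpl-24.2) and 1 rose (rpl-42), with a median of -0.03 against 0.16 over all genes, of which 12.6% fell and 23.2% rose. With the same total in each library 60 members fell, with a median of -0.37 against -0.17 over all genes. The rpl-24.2 gene stood at 10.00, 10.17 and 9.98 at 49 h and at 10.47, 10.55 and 10.59 at 41 h (-0.49 ± 0.19, adjusted p = 0.0459), and this call was lost with any FEM library of 41 or 49 h left out, and with either of 65 h or of 137 h, replicate 2 of 73 h, or replicate 1 or 2 of 97 h.

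In GEM animals 67 members fell between 41 and 49 h and 1, rpl-11.1, rose, with a median of -0.60 against -0.02 over all genes, of which 8.07% fell and 11.9% rose. The largest falls were those of rpl-39 (-0.86 ± 0.22, adjusted p = 0.00438) and rps-29 (-0.82 ± 0.19, adjusted p = 0.00245). The rpl-39 gene stood at 12.71 and 13.34 at 49 h and at 13.84, 14.01 and 13.81 at 41 h. The median kept its sign under every scaling (-0.54 to -0.67), but the calls did not hold without the displaced library of 49 h, which leaves a single library at that age: 2 members fell without it, 0 without both displaced libraries, and 0 in a fit to these groups alone. The differences without it were -0.68 for rps-29, -0.54 for rpl-39 and -0.39 for rpl-30, and the remaining library had a mean of 14.47 over the 75 members, against 14.89 to 14.93 at 41 h. In the interaction term (49 minus 41 h, FEM minus GEM) 10 members were higher and 0 lower, against 11% and 7.42% of all genes, led by rpl-39 (1.01 ± 0.29, adjusted p = 0.0131) and rps-29 (0.92 ± 0.26, adjusted p = 0.0114). This count is near the share of all genes called higher. The next count is at a looser threshold, for which no share of all genes is given, and all members share the scaling of each library. An unadjusted limma p under 0.05 was reached by 67 members, all of them higher, and 0 members were called without the displaced library of 49 h, when rps-29 had 0.78 and rpl-39 had 0.69. The count was 4 without FEM replicate 1 or 2 of 41 h, 5 and 2 without FEM replicates 1 and 2 of 49 h, 3 and 28 without GEM replicates 2 and 3 of 41 h, 44 without GEM replicate 2 of 49 h, and 17 and 32 without GEM replicates 2 and 3 of 89 h. It was 1 with the same total in each library, where the median was 0.21. Over the 75 members the difference in this term had r = -0.59 with log2 exon length. The change from 41 to 49 h had r = -0.63 in FEM and 0.40 in GEM animals. With 236 and 265 bases of exon, rpl-39 and rps-29 are among the shortest members. The part of exon length was not tested.

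From days 4-5 to day 10, every member called in either strain rose. In FEM animals 8 rose and 0 fell (median 0.34, all genes -0.04), against 10.5% and 14.2% of all genes. The count of 8 is thus near the share of all genes that rose. An unadjusted limma p under 0.05 was reached by 31, all of them upward, but no share of all genes is given for that looser threshold. Under the 4 other scalings the median of all genes was 0.04 to 0.41, beside which the count of 8 changed as follows. The count was between 67 and 79 under the 4 other scalings, with medians of 0.47 to 0.80, 3 and 28 without FEM replicates 1 and 2 of 117 h, 4 and 5 without those of 137 h, and 2 and 4 without those of 257 h. It was also 15 without either GEM library of 49 h, and 13 and 21 without GEM replicates 2 and 3 of 89 h, which enter only through the shared estimate of spread. The 8 were rpl-7, rpl-11.2, rpl-12, rpl-24.2, rpl-25.1, rps-20, rps-27 and rps-30, with the largest values for rpl-24.2 (1.28 ± 0.20, adjusted p = 7.73e-06) and rpl-11.2 (0.71 ± 0.13, adjusted p = 6.14e-05). In GEM animals 38 rose and 0 fell (median 0.48, all genes 0.26), against 12.8% and 7.81% of all genes, led by rpl-24.2 (0.93 ± 0.20, adjusted p = 0.00128) and rpl-33 (0.86 ± 0.24, adjusted p = 0.0117). This count was 0 without GEM replicate 2 of 257 h, 11 without GEM replicate 2 of 117 h, 22 without GEM replicate 2 of 137 h and 3 in a fit to these groups alone. It was 12 with quantile normalization (median 0.17, all genes 0.05) and 64 with each library centred on its median (median 0.49, all genes 0.27). No member was called in the interaction term of the limma fit (0 of 81 in either direction, against 14.5% of all genes), and 2 members had an unadjusted p under 0.05. With quantile normalization, however, 21 members rose more in FEM animals, and 23 with the same total in each library. The members' medians were then 0.38 and 0.41, against 0.02 and 0.26 over all genes. With the same total, 77.9% of the calls among all genes were also higher.

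The paralog pairs changed places within the family. The rpl-11 pair encodes the large-subunit protein uL5, which binds the 5S rRNA, and the rpl-25 pair encodes uL23, at the mouth of the exit tunnel. At 41 h the X-linked rpl-11.2 stood at 14.63, 14.48 and 14.69 in FEM libraries and at 15.11, 15.18 and 15.25 in GEM libraries. At 137 h it stood at 12.88 and 12.93 in FEM libraries and at 12.75 and 13.10 in GEM libraries, and at 257 h at 13.69 and 13.73 and at 13.43 and 13.26. The libraries of the strains thus stood apart at 41 h, overlapped at 137 h and stood apart the other way at 257 h.

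The autosomal rpl-11.1 did the reverse in GEM animals. It stood at 13.71, 13.82 and 13.84 in FEM libraries of 41 h, against 11.15, 10.19 and 10.11 in GEM libraries. At 137 h it stood at 14.05 and 14.04 in FEM libraries, against 15.29 and 15.12 in GEM libraries. At 257 h it stood at 14.59 and 14.24 in FEM libraries, against 15.36 and 15.71 in GEM libraries. The groups did not overlap at any of these ages, and the strain with more rpl-11.1 was FEM at 41 h and GEM at 137 and 257 h.

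The rpl-25 pair followed the same course with smaller steps. At 41 h rpl-25.1 stood at 14.63, 14.50 and 14.60 in FEM libraries, against 15.06, 15.11 and 14.27 in GEM libraries, at 137 h at 13.17 and 13.27, against 12.87 and 13.23, and at 257 h at 13.89 and 13.88, against 13.49 and 13.52. At 41 h rpl-25.2 stood at 14.67, 14.63 and 14.73 in FEM libraries, against 14.04, 14.02 and 13.53 in GEM libraries, at 137 h at 14.25 and 14.34, against 15.44 and 15.32, and at 257 h at 14.89 and 14.73, against 15.60 and 15.77.

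A share within a pair does not depend on the scaling of a library. Of the signal per kilobase of the rpl-11 pair, the X-linked rpl-11.2 gave 61.1 ± 2.22% (SD, n = 3) at 41 h, 47.8 ± 1.77% (n = 3) at 49 h, group means of 25.4 to 31.3% from 65 to 137 h, and 35.6 ± 4.37% (n = 2) at 257 h in FEM animals. In GEM animals it gave 95.6 ± 2.02% (n = 3) at 41 h, 89.5 ± 0.60% (n = 2) at 49 h, 76.0 ± 6.80% (n = 3) at 65 h, 55.8 ± 10.2% (n = 3) at 73 h, 26.5 ± 8.10% (n = 3) at 89 h and 15.7 ± 3.35% (n = 2) at 137 h. The X-linked rpl-25.1 gave 32.2 ± 0.15% of its pair at 137 h and 48.3 ± 0.87% at 41 h in FEM animals, and 16.7 ± 3.24% and 65.9 ± 2.92% in GEM animals. For both pairs every GEM library of 41 to 73 h lay above every FEM library of the same age, and both GEM libraries of 117, 137 and 257 h lay below. The 2 displaced GEM libraries did not stand apart by much in these shares: rpl-25.1 gave 62.5% in replicate 3 of 41 h, the lowest of its group, which reached 68.0%.

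**Figure D4:**
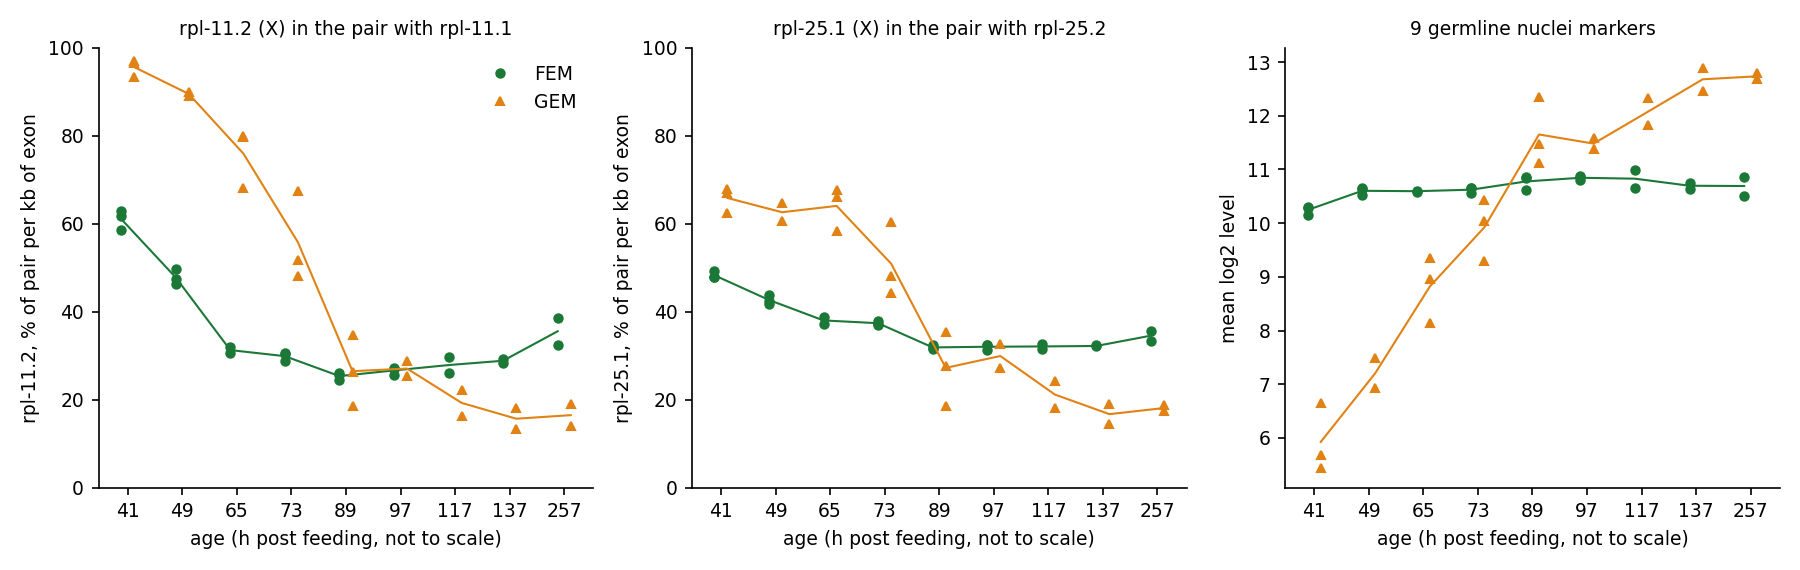
The left and middle panels give the percent of a pair's signal per kilobase of exon that came from the X-linked copy (rpl-11.2 and rpl-25.1) in each library, by age and strain (FEM circles, GEM triangles, lines through group means). The right panel gives the mean log2 level of 9 germline nuclei markers; the GEM share of rpl-11.2 goes through 95.6, 55.8 and 15.7% at 41, 73 and 137 h, while the marker mean goes through 5.93, 9.92 and 12.7.

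The germline markers of GEM animals rose from 41 to 137 h, while these shares fell. In GEM animals the mean of the 9 germline nuclei markers was 5.93 ± 0.64 after 41 h and 7.21 ± 0.39 after 49 h, 8.82 ± 0.62 and 9.92 ± 0.58 after 65 and 73 h, and 11.65 ± 0.63 and 12.7 ± 0.30 after 89 and 137 h, and none of these markers was at 0. In FEM animals it moved between group means of 10.24 and 10.85 over all ages. It was 10.70 ± 0.07 at 137 h and 10.69 ± 0.25 at 257 h (n = 2 each). The share of rpl-11.2 was 28.9 ± 0.58% and 35.6 ± 4.37% in these FEM groups. The share of rpl-11.2 was lower in every FEM library of 65 h than in those of 41 h, and these markers had means of 10.59 ± 0.01 at 65 h and 10.24 ± 0.08 at 41 h. The sperm markers had 10.93 ± 0.02 at 65 h and 8.65 ± 0.18 at 41 h, and the oocyte markers 9.05 ± 0.22 and 8.18 ± 0.22. The part of the germline in the shares was not tested.

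The ratio within each pair was compared between the strains over all ages, with strain labels exchanged within each age (permutation test, 2-sided, 100000 draws, adjusted over the 4 pairs). The log2 ratio of rpl-11.1 to rpl-11.2 per kilobase averaged 0.93 in FEM and 0.02 in GEM animals (difference 0.92, adjusted p = 0.0178), higher in FEM at 6 of 9 ages. Without the libraries of day 1 the average difference was 0.16 (adjusted p = 0.590), which joins differences of opposite sign. At 65 and 73 h the ratio was 1.13 and 1.23 in FEM animals, against -1.69 and -0.35 in GEM animals. At 89 and 97 h the strains were close (1.56 and 1.46 against 1.51 and 1.43). At 117, 137 and 257 h it was lower in FEM animals (1.37, 1.30 and 0.86 against 2.08, 2.44 and 2.35). The ratio of rpl-25.1 to rpl-25.2 averaged -0.80 and -0.72 (difference -0.08, adjusted p = 0.681), with FEM higher at 5 ages and GEM at 4. For pairs that cross with age, the average says little of either end.

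The rpl-24 and rpl-41 pairs kept the same member on top at all ages. The ratio of rpl-24.1 to rpl-24.2 averaged 5.04 in FEM and 4.85 in GEM animals (difference 0.18, adjusted p = 0.0334, higher in FEM at 7 of 9 ages), and its adjusted p was 0.0541 without FEM replicate 2 of 65 h and 0.0501 without GEM replicate 1 of 65 h. The ratio of rpl-41.1 to rpl-41.2 averaged -3.99 in FEM and -4.36 in GEM animals (difference 0.38, adjusted p = 4e-05, higher in FEM at 8 of 9 ages). The rpl-41 genes lie next to each other on chromosome I, at 4789190 to 4789592 and 4790292 to 4790642. How reads that match both copies of a pair were assigned is not given in the sources used here, which leaves the level of the scarcer copy uncertain.

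The assembly factor rpl-24.2 left the course of the family in FEM animals (r = 0.276 with the mean of the 75 members). In GEM animals it followed that course more closely (r = 0.825), with a larger rise. It stood at 10.47, 10.55 and 10.59 in FEM libraries of 41 h and at 10.13 and 10.21 in those of 137 h, and at 11.63 and 11.31 in those of 257 h. In GEM animals it stood at 9.95, 10.07 and 9.82 at 41 h, at 11.73 and 11.48 at 137 h and at 12.16 and 12.48 at 257 h. The GEM libraries were thus below the FEM libraries at 41 h and above them at 137 and 257 h. Its partner rpl-24.1 stayed with the other 75 members, with 14.86 and 14.95 in FEM libraries of 137 h, against 15.73 and 15.75 in GEM libraries.

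The rpl-42 gene (WBGene00004455, chromosome II, 11092713 to 11094022) was almost a FEM gene. It stood at 6.07, 6.69 and 6.07 in FEM libraries of 41 h and between 7.88 and 9.13 in the 20 later ones. In GEM libraries it stood at 0.92, 0 and 0 at 41 h, was listed at 0 in 1 library each of 65 and 89 h, and reached at most 3.68, at 257 h. The lowest FEM library, at 6.07, was thus above the highest GEM library. The difference over the 9 ages was 6.65 ± 0.16 (adjusted p = 3.44e-28), which depends on the added count of 1 since 4 GEM libraries are at 0. In FEM animals rpl-42 rose between 41 and 49 h (2.45 ± 0.43, adjusted p = 2.59e-05), when the mean of the 7 sperm markers was 10.55 ± 0.13 at 49 h and 8.65 ± 0.18 at 41 h (SD, n = 3 each). With day 1 taken as 49 h, its difference between days 4-5 and day 1 was -0.08 instead of 1.14.

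**Figure D5:**
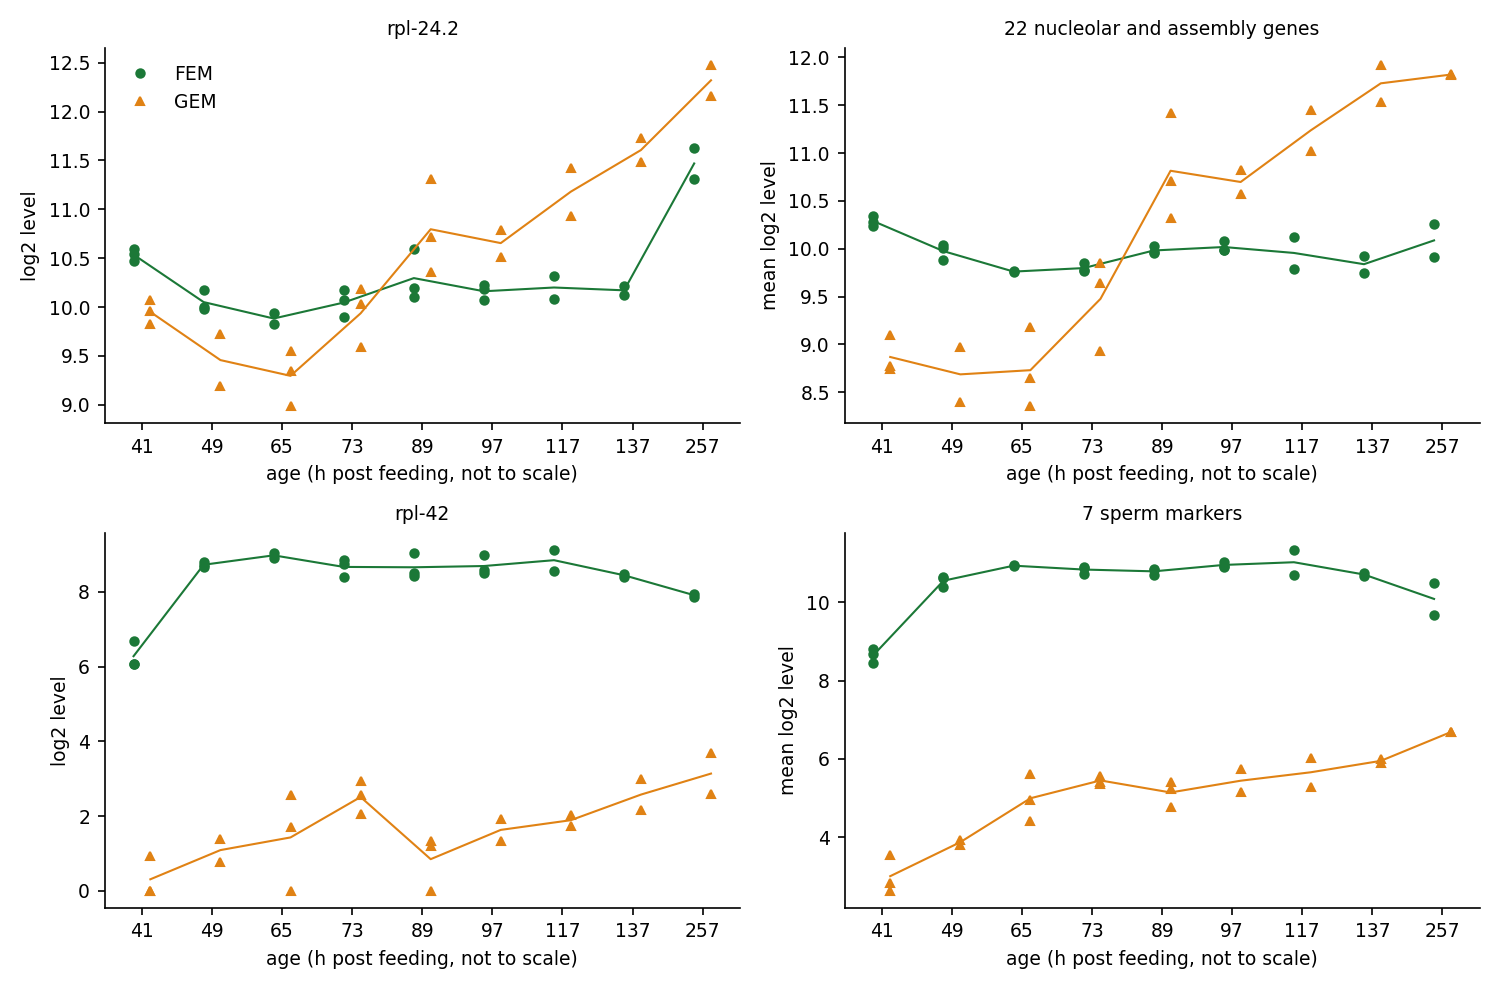
Log2 level of rpl-24.2 and rpl-42 (left) beside the mean log2 level of 22 nucleolar and assembly genes and of 7 sperm markers (right), for each library by age in h post feeding, FEM as circles and GEM as triangles, with lines through the group means. The GEM means of the nucleolar genes go through 8.87, 9.48 and 11.8 at 41, 73 and 257 h, and rpl-42 reaches 9.13 in FEM libraries against 3.68 in GEM libraries.

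Other genes of translation were described from lists of names, of which 22 of 36 for the nucleolus and ribosome assembly and 11 of 15 for elongation and termination matched a name in the table. Values of these lists, here and in the next paragraph, are given on the deposited scale alone and not under the other scalings. The 22 genes of the nucleolus and of ribosome assembly had a mean level of 9.84 ± 0.13 (SD, n = 2) at 137 h and 10.29 ± 0.05 (n = 3) at 41 h in FEM animals, and of 11.73 ± 0.27 and 8.87 ± 0.20 at these ages in GEM animals. All 22 rose in GEM animals from day 1 to days 4-5 (median 2.77), when 54.3% of all genes rose (median 0.75), while in FEM animals 2 rose and 4 fell (median -0.27), against 35.4% and 20.9% of all genes (median 0.23). They included fib-1, the fibrillarin that methylates rRNA (2.29 in GEM, -0.83 in FEM animals), and rpoa-2, a subunit of RNA polymerase I (3.28 in GEM animals, and -0.39 in FEM animals without passing the test). At days 4-5, 21 of the 22 were lower in FEM than in GEM animals (median -1.69) and ncl-1, a repressor of nucleolar size, had 0.08. The change of the ribosomal protein genes in GEM animals (median 0.29) was thus smaller than that of the nucleolar genes, and the difference was not tested.

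Of the 11 elongation and termination factors, 7 fell and 0 rose in FEM animals from day 1 to days 4-5 (median -0.32, with 20.9% of all genes falling), among them eef-1A.1 (-0.42) and eef-2 (-0.26). In GEM animals 7 rose and 2 fell (median 0.63), shares near those of all genes (54.3% and 22.4%, median 0.75). The eIF5A paralogs moved apart as the rpl-11 pair did: in GEM animals the germline form iff-1 rose by 4.88 and the somatic form iff-2 fell by 1.75 on the log2 scale. At days 4-5, 39.8% of all genes were lower in FEM than in GEM animals (median -0.27). The 8 genes of the TOR pathway, which controls the translation of ribosomal protein mRNAs, were all lower in FEM than in GEM animals at days 4-5 (median -1.12), with -0.70 for let-363, the TOR kinase, and -0.98 for rsks-1, the S6 kinase. The 66 mitochondrial ribosomal protein genes were also all lower in FEM animals at days 4-5 (median -1.24), as were the 31 aminoacyl-tRNA synthetases (median -1.07) and 28 of 33 initiation factors (median -0.76). In FEM animals 62 of the 66 mitochondrial ribosomal protein genes fell from day 1 to days 4-5, with a median of -0.67, against -0.66 for the cytosolic ones. The ubiquitin fusions ubl-1 and ubq-2 and the scaffold rack-1, which are parts of the ribosome under other names, all fell in that comparison (-0.66, -0.50 and -0.64).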

How the data were processed

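RNA-seq libraries were made from poly(A) RNA of whole worms, primed with random hexamers. The authors trimmed reads (Trim Galore 0.4.4), mapped them to WBCel235 (HISAT2 2.1.0, non-directional single-end) and counted exactly overlapping reads per gene in SeqMonk with isoforms merged. The authors deposited natural log values of DESeq2-normalised counts plus 1, with 2 decimals. The base of the logarithm was read from the values, since 100% of low values in every library were whole multiples of the step that 1 read gives. This step also gave the depth of 12831660 to 43208901 reads. Values were converted to log2.

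The tests ran across all genes whose deposited values averaged 1 or more (16925), with limma 3.58.1 (R 4.3.3): a mean for each of the 18 groups, empirical Bayes moderation with a trend, 13 comparisons, Benjamini-Hochberg adjustment over all genes and a threshold of 0.05. Replicates carry no numbers in the labels and were numbered in accession order. Nothing in the labels says that they are separate cultures, so p-values measure the spread between these libraries. Ratios within 4 paralog pairs were compared by permutation (Python 3.11.15, scipy 1.17.1). Positions and exon lengths came from the Ensembl 115 annotation of WBcel235, in which all 81 members were found. Scripts were tested on simulated data.

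Named members were the paralogs, variants and stalk genes, 6 well-known members, the highest and lowest per kilobase of exon and, per comparison, the 2 largest in each direction past the threshold and the member nearest the median. The members, lists and rules were chosen with earlier results of these data known. Alternatives were other scalings, filters, pseudocounts, models and definitions of day 1, each library left out, and, chosen after seeing the data, 2 GEM libraries of day 1 left out together. No sequences are shown.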

Additional observations from a re-analysis of the deposited data

Results flagged for a closer look

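The change in level differed between the strains by the interaction term of the limma fit in 2 intervals. Between 41 and 49 h, 10 members were higher in FEM than in GEM animals in this term, with 1.01 for rpl-39 and 0.92 for rps-29. This count is near the share of all genes called higher in this term (11%). Without the displaced GEM library of 49 h, which leaves a single library in its group, 0 members were called, and the values were 0.69 for rpl-39 and 0.78 for rps-29. Between day 1 and days 4-5, 77 members were lower and 1 was higher in FEM than in GEM animals, with -3.94 for rpl-11.1, -1.97 for rpl-25.2 and 0.53 for rpl-11.2. Of all genes, 41.6% were lower and 14.4% higher. Single libraries were not tested for distance from their group, since groups held 2 or 3 libraries.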

How the results depend on the processing

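The 26 counts of members, 4 ratios and 83 values of single genes were recomputed under each alternative. Of 4643 recomputed values of single genes, 4494 kept their direction and their side of the threshold, 132 no longer passed it and 17 reversed. No paired analysis was possible because the titles give every library a serial number of its own, and no label says which libraries of the strains belong together.

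With quantile normalization, 12 members were higher and 6 lower in FEM against GEM animals on day 1, 2 were higher on days 4-5, 4 higher and 6 lower on day 10, 18 lower in FEM 49 h minus 41 h, 3 higher and 38 lower in FEM days 4-5 minus day 1, 6 lower in GEM days 4-5 minus day 1, 71 higher in FEM and 12 in GEM day 10 minus days 4-5, and 19, 2 and 21 higher in the 3 interaction terms (49 minus 41 h, days 4-5 minus day 1, day 10 minus days 4-5). Reversed values were -0.16 for rps-1 (FEM against GEM, day 1), 0.017 for rpl-24.1, 0.21 for rpl-7, 0.053 for rpl-7A, 0.0036 for rla-0 and 0.13 for rps-6 (FEM days 4-5 minus day 1), and 0.13 for rpl-41.1 (interaction, days 4-5 minus day 1). With each library centred on its median, FEM against GEM gave 1 higher and 79 lower over the 9 ages, 3 higher and 78 lower on day 1 and 1 higher on day 10, 15 were lower in FEM 49 h minus 41 h, 4 higher and 64 lower in GEM days 4-5 minus day 1, 67 and 64 higher in FEM and GEM day 10 minus days 4-5, and 3 and 2 higher in the interactions of 49 minus 41 h and of days 4-5 minus day 1. Reversed were rps-1 (-0.58, day 1), rpl-6 (-0.39) and rpl-24.1 (-0.34, both GEM days 4-5 minus day 1). With the same total in each library, FEM against GEM gave 75 lower over the 9 ages, 4 higher and 27 lower on day 1, 2 higher on days 4-5 and 3 lower on day 10, 60 were lower in FEM 49 h minus 41 h, 4 higher and 59 lower in GEM days 4-5 minus day 1, 79 higher in FEM day 10 minus days 4-5, and 1, 2 and 23 higher in the interactions. Reversed were rps-1 (-0.11), rpl-6 (-0.31) and rpl-24.1 (-0.25). With the same total outside the ribosomal protein genes these were 76 lower, 4 higher and 28 lower, 3 lower on day 10, 67 lower, 4 higher and 63 lower, 79 higher, and 1, 2 and 27 higher, with -0.12 for rps-1, -0.35 for rpl-6 and -0.30 for rpl-24.1. These scalings assume that the median, the distribution or the total of a library is equal between groups. Which assumption holds was not tested.

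With no filter, 1 member fell in FEM and 0 rose in GEM 49 h minus 41 h, and 5 were higher in that interaction. With a mean of at least 3, 13 rose in FEM day 10 minus days 4-5. With a pseudocount of 8, 1 fell in FEM day 10 minus days 4-5, 17 and 2 were higher in the interactions of 49 minus 41 h and days 4-5 minus day 1, and 1 lower in that of day 10. Without a trend, 1 fell in FEM and 0 rose in GEM 49 h minus 41 h, 5 rose in FEM day 10 minus days 4-5, and 6 were higher in the interaction of 49 minus 41 h. In a fit to only the groups compared, 1 was higher in FEM against GEM on day 10, 2 rose in FEM 49 h minus 41 h, 0 rose and 0 fell in GEM 49 h minus 41 h, 11 rose in GEM days 4-5 minus day 1, 3 rose and 1 fell in FEM and 3 rose in GEM day 10 minus days 4-5. With day 1 as 41 h only, 4 were higher in FEM against GEM on day 1 and 4 rose and 8 fell in GEM days 4-5 minus day 1. With day 1 as 49 h only, 0 rose in FEM and 62 in GEM days 4-5 minus day 1, and rpl-42 reversed to -0.079 in FEM animals. Without the 2 GEM libraries of day 1 that stood apart, 10 were higher and 2 lower in FEM against GEM on day 1, 2 higher on days 4-5, 0 rose and 0 fell in GEM 49 h minus 41 h, 12 rose in GEM days 4-5 minus day 1, 17 rose in FEM day 10 minus days 4-5, and 0 and 2 were higher in the interactions of 49 minus 41 h and days 4-5 minus day 1. Without the libraries of day 1, the FEM minus GEM difference in the log2 ratio was 0.16 for rpl-11.1 to rpl-11.2 and 0.22, reversed, for rpl-25.1 to rpl-25.2. The cause of each shift was not tested.

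With each library left out in turn, where a group of 2 leaves a lone library that is assumed to vary like the others, the counts ranged as follows. FEM against GEM animals had 2 to 4 members higher over the 9 ages, 9 to 52 higher on day 1 and 1 to 2 higher on day 10. In 49 h minus 41 h, 0 to 2 fell in FEM and 0 to 1 rose and 2 to 75 fell in GEM animals. In GEM days 4-5 minus day 1, 13 to 47 rose. In day 10 minus days 4-5, 2 to 28 rose in FEM and 0 to 44 in GEM animals. The interactions had 0 to 44 higher (49 minus 41 h), 1 to 2 higher (days 4-5 minus day 1) and 0 to 1 lower (day 10). The difference in the ratio of rpl-24.1 to rpl-24.2 ranged from 0.17 to 0.20. Counts not given here were within 1.5 times those reported. Groups of 2 or 3 libraries limit every count.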
